A study of Homo sapiens with 12 samples.

Results

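The oxygen sensors of the HIF pathway are the prolyl hydroxylases EGLN1, EGLN2 and EGLN3 (also called PHD2, PHD1 and PHD3), the asparaginyl hydroxylase HIF1AN (also called FIH) and VHL, and their mRNAs were examined in 786-O, a human line of clear cell renal cell carcinoma. The members were the rows of the count table whose Ensembl gene ID maps to these names, 5 of 62702 genes. The 12 libraries, 3 in each of 4 groups, were made by BRB-seq, in which barcoded polyadenylated RNA is pooled and read near its 3′ end. One group was the parental line, here called parental. The other 3 carried shRNAs switched on by doxycycline: shHIF2A targets HIF2A (gene EPAS1), shJUNs the AP-1 genes JUN, JUNB and JUND together, and shYAPTAZ the coactivators YAP (YAP1) and TAZ (WWTR1). Parental cells had the same 72 hours of doxycycline as the rest. The knockdown lines had also been selected with puromycin, blasticidin or hygromycin, and whether a line was a clone is not stated. A control shRNA was not among the libraries used, so a knockdown cannot be told apart from other differences between the lines. In bulk RNA, fewer cells of a type and less RNA per cell cannot be told apart either. The labels call the replicates technical, so the p-values measure only the spread between these libraries.

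In the presence of oxygen, the EGLN enzymes hydroxylate prolines of the HIF alpha subunits, using oxygen, iron and 2-oxoglutarate. The hydroxylated subunit is bound by VHL, the substrate receptor of a ubiquitin ligase with elongins B and C, CUL2 and RBX1, and is degraded. HIF1AN hydroxylates an asparagine of the C-terminal activation domain and so lowers its activity without destroying the protein. EGLN3 and, in many cells, EGLN1 are themselves targets of HIF, a negative feedback. 786-O lacks functional VHL protein and its HIF2A is therefore stable in oxygen, so here the hydroxylases act upstream of a broken step.

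Of the 3 sensors that could be tested, EGLN3 was the 1 that passed an adjusted p of 0.05 among the 4 groups, as did 38.7% of 12301 genes. It was 12.7-fold lower in shHIF2A than in parental cells, 4.96-fold lower in shJUNs and 6.6-fold lower in shYAPTAZ. HIF1AN and VHL passed the test in no comparison. EGLN1 and EGLN2 had 9 and 0 counts over the 12 libraries and were not tested.

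The RefSeq promoter windows (GRCh38.p14) of EGLN3 and HIF1AN are shown because these were the sensors with a usable level and a window, and that of EGLN1 because it holds the core of a HIF site. Each runs from 250 bases before to 50 bases after the gene start, on the strand of the gene. Capitals mark matches, on either strand, to the HIF core (ACGTG or GCGTG), the AP-1 motif TGACTCA or the TEAD motif GGAATG. The EGLN3 window lies at chr14:33951025-33951324, that of HIF1AN at chr10:100535693-100535992 and that of EGLN1 at chr1:231422238-231422537.
EGLN3: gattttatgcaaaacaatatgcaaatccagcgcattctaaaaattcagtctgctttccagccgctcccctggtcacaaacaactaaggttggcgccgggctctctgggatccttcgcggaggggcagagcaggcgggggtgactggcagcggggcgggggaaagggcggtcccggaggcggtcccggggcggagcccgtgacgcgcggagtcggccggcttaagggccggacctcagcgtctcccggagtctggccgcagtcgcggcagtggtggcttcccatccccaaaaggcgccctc
HIF1AN: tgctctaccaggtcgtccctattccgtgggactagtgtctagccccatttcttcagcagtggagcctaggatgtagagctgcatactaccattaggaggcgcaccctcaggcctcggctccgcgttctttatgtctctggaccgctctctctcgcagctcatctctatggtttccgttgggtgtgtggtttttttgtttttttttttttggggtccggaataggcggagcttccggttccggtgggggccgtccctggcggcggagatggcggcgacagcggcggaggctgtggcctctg
EGLN1: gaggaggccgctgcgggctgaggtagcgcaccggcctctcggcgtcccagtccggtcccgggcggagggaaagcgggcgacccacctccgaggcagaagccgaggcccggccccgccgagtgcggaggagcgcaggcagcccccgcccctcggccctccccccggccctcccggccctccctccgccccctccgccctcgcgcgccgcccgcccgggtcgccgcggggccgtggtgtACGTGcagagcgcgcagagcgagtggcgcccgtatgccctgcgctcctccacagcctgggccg
The windows of EGLN3 and HIF1AN held none of these motifs. The EGLN1 window held 1 ACGTG, starting 13 bases before the gene start. Of the 2 windows of EGLN2, the upstream one held ACGTG on both strands of a single CACGTG, starting at -49 and -48. A HIF core was found in 48.4% of 35116 RefSeq windows of this length (ACGTG in 21.4%, GCGTG in 36.5%), the AP-1 motif in 4.9% and the TEAD motif in 14%. The EGLN3 and HIF1AN windows belong to starts inside the spans of these genes given further on, which reach back to more distant starts. A match is a description of the letters and not a binding site, and sites outside the windows were not searched. RefSeq windows were matched for 4 of the 5 members, all but VHL.

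EGLN1 (ENSG00000135766, chromosome 1, 231363751 to 231422287, hg38, minus strand), the main HIF prolyl hydroxylase in most cells, had 9 counts in all. There were 3 counts in each of shJUNs replicates 1 and 3 and shYAPTAZ replicate 2, and no count in the other libraries. EGLN2 (ENSG00000269858, chromosome 19, 40798996 to 40808434, plus strand), a nuclear prolyl hydroxylase, had no count in any library, where 3 counts would be 0.666 to 1.36 CPM. CPM are counts scaled to 1e6 per library after TMM normalisation, which corrects library sizes for composition. Both genes share their 3′ ends with another annotated gene on the same strand, and 3′ ends are what BRB-seq reads. Of the 2725 bases of the last exon of EGLN1 (231363751 to 231366475), nearly all of it 3′ UTR beyond a stop codon at 231366411 to 231366413, 2679 also belong to ENSG00000287856. Of the last 500 exon bases of EGLN2, 96.8% belong to the readthrough gene RAB4B-EGLN2 as well, and for EGLN1 that share is 90.8%. Neither ENSG00000287856 nor RAB4B-EGLN2 had a count in any library.

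Genes with this kind of overlap were often without counts. Among 861 protein-coding genes with at least 90% of their last 500 exon bases inside exons of another gene on the same strand, 76.9% had no count in any library. Among 15903 with no such exon on either strand the share was 25.4%, and among 675 covered to at least 90% on the opposite strand alone it was 8.3%. Neither EGLN1 nor EGLN2 passed the filter on low counts, and no level of either is read from these values. The sources do not say how reads shared by 2 genes were treated, and the part of the overlap in these low counts was not tested. The share of EGLN3 in the counts of EGLN1 to EGLN3 was 95.2% to 100% in every library, with EGLN1 and EGLN2 at or near 0. With EGLN1 and EGLN2 not measured, a test of this share between groups would be void and is not given.

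**Figure D1:**
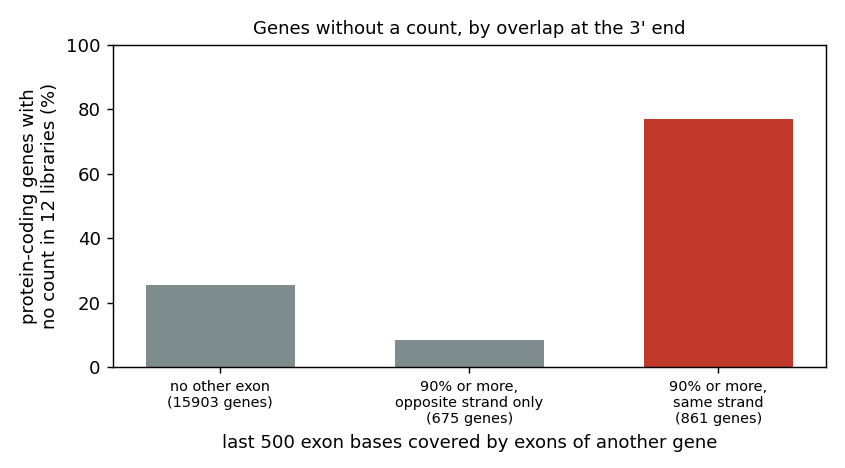
Share of protein-coding genes with no count in 12 libraries (vertical axis, percent), by how much of their last 500 exon bases lies within exons of another gene (horizontal axis, number of genes in brackets). The bar for same-strand overlap, the class of EGLN1 and EGLN2, stands at 76.9%, against 25.4% for genes with no overlapping exon.

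The last 500 exon bases of EGLN3, HIF1AN and VHL had no same-strand overlap. For VHL, 31.8% of them lie in exons of ENSG00000287086 on the opposite strand. That gene had 12, 15 and 9 counts in shJUNs and 0 to 6 in each of the other 9 libraries, few beside those of VHL. The use of strand and the treatment of shared reads are not stated, so these counts do not show how many reads fell in the overlap. Its part in the VHL values was not tested.

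EGLN3 (ENSG00000129521, chromosome 14, 33924227 to 34462774, minus strand), the hydroxylase most strongly induced by HIF in many cell types, was 237, 142 and 108 CPM in parental replicates 1 to 3, from 679, 504 and 382 counts. In shHIF2A it was 12.5, 10.3 and 15.4 CPM. All parental libraries were above all shHIF2A libraries, with 108 CPM the lowest of the parental ones. The mean fell from 162 ± 66.9 CPM (SD, n = 3) to 12.7 ± 2.57 CPM (SD, n = 3), a log2 change of -3.67 ± 0.46 (SE, adjusted p = 8.22e-05). EGLN3 was the 1 of 3 tested sensors called in this comparison, where edgeR called 18.6% of 12301 genes.

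In shJUNs EGLN3 was 37.5, 36.1 and 24.4 CPM, again all below the parental libraries. The mean was 32.6 ± 7.21 CPM (SD, n = 3), a log2 change of -2.31 ± 0.42 (SE, adjusted p = 0.00137). It was again the 1 sensor of 3 called, against 19.3% of all genes tested. In shYAPTAZ EGLN3 was 47.7, 18.8 and 10.4 CPM. These libraries did not reach the parental ones but spread over a wider range than those of the other knockdowns, with a coefficient of variation of 76.4% against 20.2% in shHIF2A and 22.1% in shJUNs. The mean was 25.6 ± 19.6 CPM (SD, n = 3), a log2 change of -2.72 ± 0.44 (SE, adjusted p = 0.000366). Without shYAPTAZ replicate 1 the log2 change was -3.49 (11.3-fold, adjusted p = 1.26e-07). It was -2.56 without replicate 2 (adjusted p = 0.00348) and -2.33 without replicate 3 (5.01-fold, adjusted p = 6.52e-05). In shYAPTAZ too EGLN3 was the 1 sensor of 3 called, against 25.3% of all genes.

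By mean level the order for EGLN3 was parental, shJUNs, shYAPTAZ and shHIF2A. No difference between knockdowns passed the test in the main fit. The log2 difference of shJUNs against shHIF2A was 1.36 (95% interval 0.39 to 2.34, adjusted p = 0.0892), with no overlap between the libraries. EGLN3 was called in 5 of 21 alternatives in this comparison, 2 in shYAPTAZ against shHIF2A and 1 in shYAPTAZ against shJUNs. Among the 5 was the edgeR fit with the replicate number as a block (adjusted p = 0.00349). The log2 difference of shYAPTAZ against shHIF2A was 0.95 (-0.06 to 1.96, adjusted p = 0.192) and that against shJUNs was -0.41 (-1.34 to 0.52, adjusted p = 0.594). In those pairs the libraries overlapped. Both values also depended on single libraries. Without shYAPTAZ replicate 1 they were 0.18 (adjusted p = 0.796) and -1.18 (adjusted p = 0.0184), and without shYAPTAZ replicate 3 they were 1.35 (adjusted p = 0.0144) and -0.01 (adjusted p = 0.988). By the main edgeR fit, DESeq2 and limma-voom, 0 of the 3 tested sensors were called in the comparisons between knockdowns. At an unadjusted p under 0.05 in the main fit, only EGLN3 in shJUNs against shHIF2A passed (0.00963). Among all genes tested, edgeR called 7.53% in shJUNs against shHIF2A, 18.4% in shYAPTAZ against shHIF2A and 16.1% in shYAPTAZ against shJUNs. Among all 4 groups together, EGLN3 differed (adjusted p = 3.38e-05), as did 38.7% of genes, while HIF1AN (0.336) and VHL (0.354) did not pass.

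**Figure D2:**
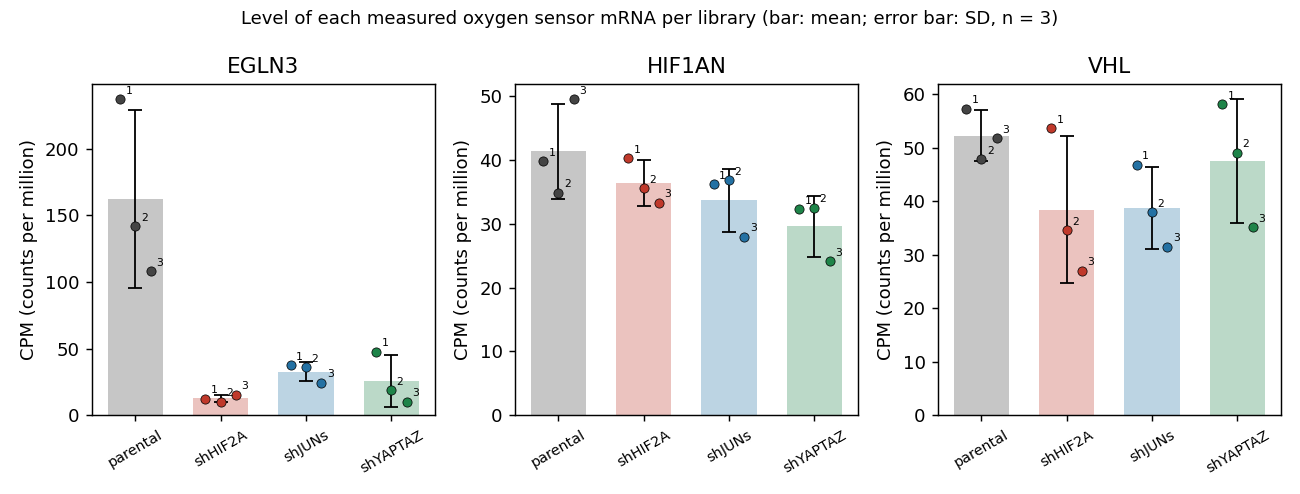
CPM (vertical axes, linear from 0) of EGLN3, HIF1AN and VHL in each of the 12 libraries, by group. Points are libraries with their replicate number, bars are means and error bars are SD (n = 3); the parental libraries of EGLN3 sit at 108 CPM or above and all others at 47.7 CPM or below.

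HIF1AN (ENSG00000166135, chromosome 10, 100529072 to 100559998, plus strand) was 39.8, 34.9 and 49.5 CPM in the parental libraries. It was 40.3, 35.6 and 33.3 CPM in shHIF2A and 36.2, 36.9 and 27.9 CPM in shJUNs, both overlapping the parental range. In shYAPTAZ it was 32.2, 32.5 and 24.1 CPM, all below the lowest parental library. Its means were 41.4 ± 7.43, 36.4 ± 3.58, 33.7 ± 4.96 and 29.6 ± 4.77 CPM (SD, n = 3 each) in parental, shHIF2A, shJUNs and shYAPTAZ, and no neighbours in that order differed by the test. The log2 change in shYAPTAZ was -0.49 (95% interval -0.98 to -0.0014, unadjusted p = 0.0494, adjusted p = 0.138). It was -0.18 (-0.67 to 0.30, adjusted p = 0.63) in shHIF2A and -0.30 (-0.78 to 0.18, adjusted p = 0.407) in shJUNs. With all 12 libraries none of these intervals reaches a 2-fold fall. When a library was left out, the log2 change in shYAPTAZ ranged from -0.6 to -0.34.

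VHL (ENSG00000134086, chromosome 3, 10141778 to 10153667, plus strand) was transcribed in this line. It was 57.2, 47.8 and 51.7 CPM in the parental libraries, 53.6, 34.6 and 27.0 CPM in shHIF2A, 46.8, 37.9 and 31.5 CPM in shJUNs, and 58.1, 49.0 and 35.2 CPM in shYAPTAZ. The libraries of shJUNs lay below all parental ones, and those of shHIF2A and shYAPTAZ overlapped them. The means were 52.3 ± 4.74 CPM in parental cells, 47.4 ± 11.6 in shYAPTAZ, 38.8 ± 7.69 in shJUNs and 38.4 ± 13.7 in shHIF2A (SD, n = 3 each). The log2 change was -0.44 (95% interval -0.97 to 0.09, adjusted p = 0.248) in shHIF2A, -0.43 (-0.95 to 0.09, adjusted p = 0.256) in shJUNs and -0.15 (-0.68 to 0.38, adjusted p = 0.72) in shYAPTAZ. Without shHIF2A replicate 1 the log2 change in shHIF2A was -0.76 (adjusted p = 0.0655), and without shHIF2A replicate 3 it was -0.24 (adjusted p = 0.613).

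**Figure D3:**
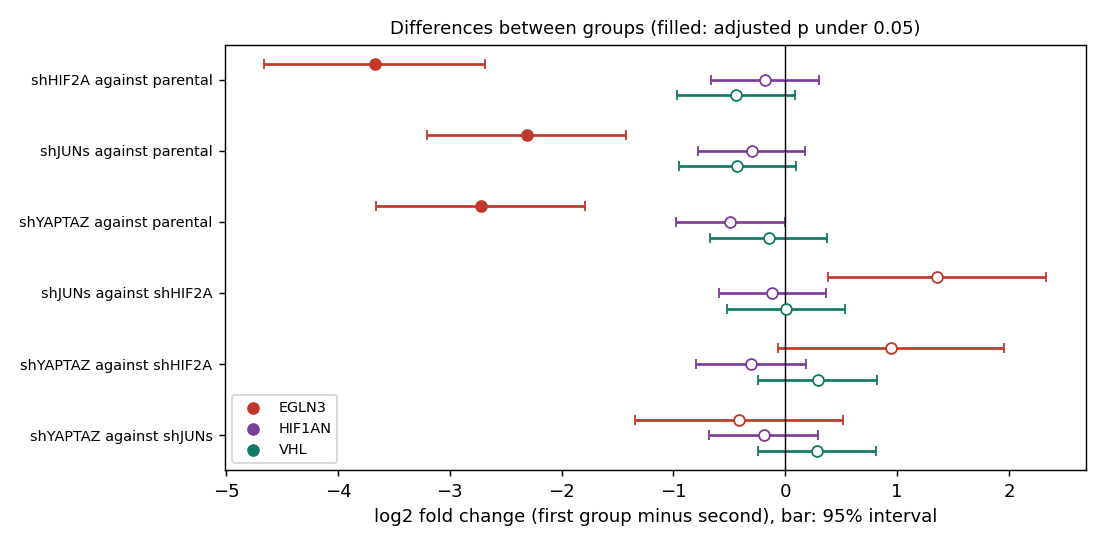
Log2 fold change (horizontal axis, first group minus second) of EGLN3, HIF1AN and VHL in the 6 comparisons (vertical axis), with 95% intervals; filled points passed an adjusted p of 0.05. EGLN3 lies at -3.67, -2.31 and -2.72 against parental cells, and the points of HIF1AN and VHL lie between -0.49 and 0.29.

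The tested genes near EGLN3 had smaller changes. Of these, 14 had a start within 1 Mb of its span. All lay at higher coordinates than its 3′ end, by 0.509 to 1.477 Mb. On the other side the nearest tested gene, RNU6-8, lay at 32203163 to 32203269, beyond this window. Over the 14 genes, the lowest log2 changes were -1.35 in shHIF2A, -0.6 in shJUNs and -0.58 in shYAPTAZ, and the highest 0.74, 1.06 and 1.44. Of these, edgeR called 2, 4 and 6 higher, among them CFL2, a muscle cofilin, and the chromatin remodeller BAZ1A in all 3 knockdowns. It called 0 lower in shHIF2A (1 at an unadjusted p under 0.05, 0 by DESeq2, 1 by limma-voom), 0 lower in shJUNs (1 unadjusted, 1 by DESeq2, 1 by limma-voom), and 1, the pseudogene RPS19P3, in shYAPTAZ. RPS19P3, CFL2 and BAZ1A were named after their values were seen. SPTSSA, a subunit of serine palmitoyltransferase that lies inside the span of the longest EGLN3 transcripts, had a log2 change of -0.12 in shHIF2A (adjusted p = 0.795) and 0.33 in shJUNs (0.409), and rose by 0.96 in shYAPTAZ (0.00858). EAPP, the nearest tested gene beyond it, had log2 changes of -0.10, 0.23 and 0.32 (adjusted p = 0.866, 0.66 and 0.498). Genes of chromosome 14 as a whole shifted upward in shJUNs and shYAPTAZ, with a median log2 change of 0.39 and 0.89 over 412 tested genes, against -0.01 in shHIF2A. Over all genes tested the medians were 0.005 in shHIF2A, -0.001 in shJUNs and 0.022 in shYAPTAZ. Relative to its chromosome the log2 change of EGLN3 was -3.61 in shYAPTAZ. On that scale the log2 difference between shJUNs and shHIF2A was 0.94, and that between shYAPTAZ and shHIF2A 0.13.

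**Figure D4:**
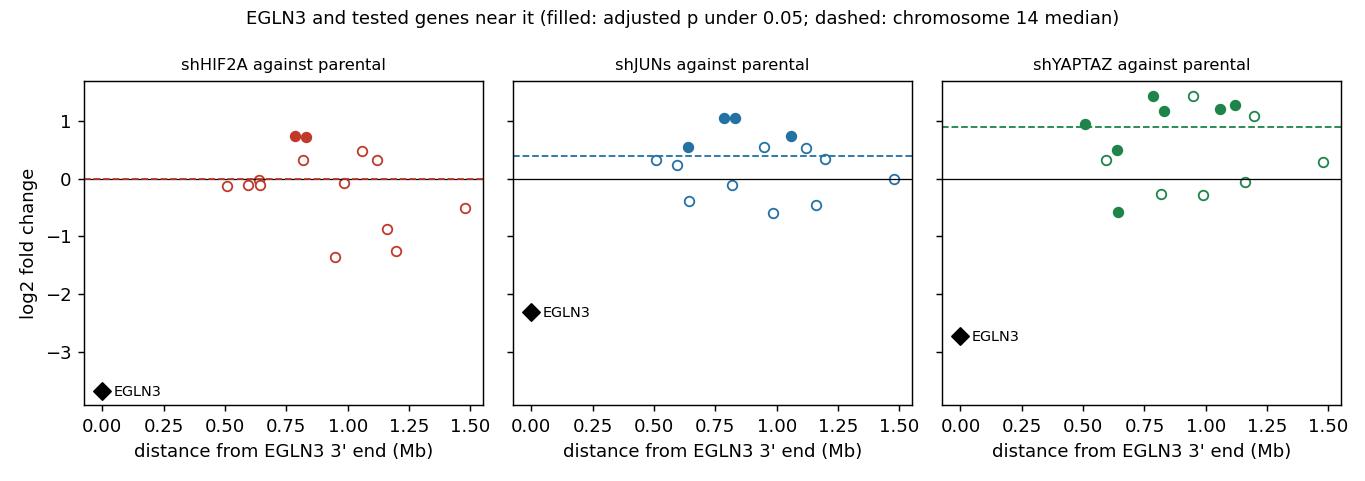
Log2 fold change against parental cells (vertical axis) of EGLN3 (diamond) and the 14 tested genes within 1 Mb of its span. The horizontal axis is the distance in Mb from the 3′ end of EGLN3, and all 14 genes lie on 1 side of it. Filled circles passed an adjusted p of 0.05 and the dashed line is the chromosome 14 median; EGLN3 lies below every neighbour in all 3 comparisons.

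EGLN3 was set beside EPAS1, the gene of HIF2A, in each library. EPAS1 was 267, 194 and 148 CPM in parental cells. The shHIF2A libraries had 11.9, 17.5 and 18.6 CPM, those of shJUNs 36.6, 38.5 and 36.2 CPM, and those of shYAPTAZ 172, 109.8 and 58.6 CPM. The ratio of EGLN3 to EPAS1 CPM, chosen after its values were seen and given without a test, was 0.889, 0.729 and 0.728 in parental libraries. It was 1.05, 0.589 and 0.83 in shHIF2A and 1.02, 0.938 and 0.673 in shJUNs, which overlapped the parental range. In shYAPTAZ it was 0.277, 0.171 and 0.177, below all 9 other libraries. The mean ratio was 3.75 times lower in shYAPTAZ than in parental cells (0.208 ± 0.0595 against 0.782 ± 0.0927, SD, n = 3 each). The ratio compares libraries and is not a ratio of molecules.

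**Figure D5:**
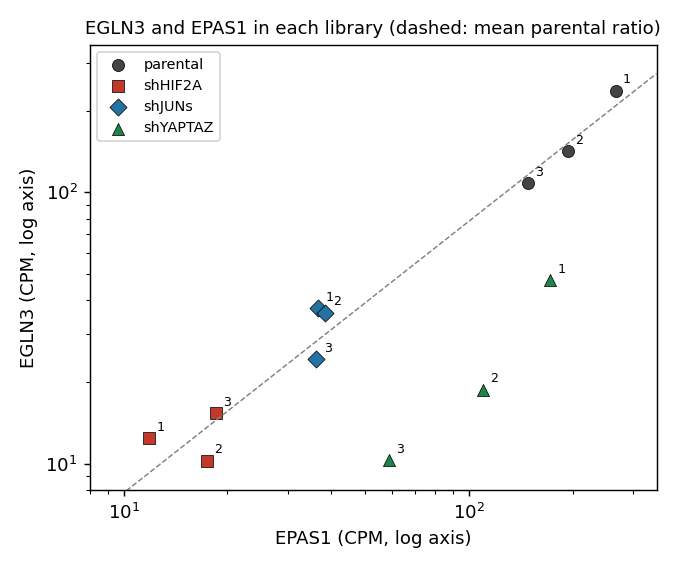
EGLN3 CPM (vertical, log axis) against EPAS1 CPM (horizontal, log axis) in the 12 libraries, marked by group with the replicate number; the dashed line is the mean parental ratio of 0.782. The 3 shYAPTAZ libraries lie below the line, at ratios of 0.171 to 0.277.

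The genes whose pattern was most like that of EGLN3 were STK32C, a protein kinase, and GAL3ST1, the sulfotransferase that makes sulfatide, each with a Pearson correlation of 0.957 of log2 CPM over the 12 libraries, and SYTL3, a synaptotagmin-like protein, with 0.951. They were the highest of 8679 genes ranked, which had a mean of at least 10 CPM. The points share libraries and fall into the 4 groups, so these values describe the group pattern. GAL3ST1 went from 427 ± 73.99 CPM in parental cells to 64.2 ± 14.4 in shHIF2A, 163 ± 15.8 in shJUNs and 105 ± 40.0 in shYAPTAZ (SD, n = 3 each). STK32C went from 101.2 ± 25.1 CPM to 31.2 ± 9.73, 49.7 ± 5.52 and 42.2 ± 5.98 CPM in the same order.

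The rest of the pathway was described by lists, without the 5 sensors. Of the HIF subunits, 4 of 5 were tested. Of these, edgeR called 1 higher and 1 lower in shHIF2A, 0 higher and 1 lower in shJUNs, and 1 higher and 2 lower in shYAPTAZ. In shJUNs 0 were higher at an unadjusted p under 0.05, by DESeq2 or by limma-voom. EPAS1, itself the shRNA target in shHIF2A, was 12.7-fold, 5.47-fold and 1.8-fold lower in that order (adjusted p = 6.38e-07, 1.78e-05 and 0.0361). HIF1A, another HIF alpha gene, rose 1.86-fold in shHIF2A (adjusted p = 0.0405) and 22-fold in shYAPTAZ, from 6.14 ± 2.27 CPM to 137 ± 20.2 CPM (SD, n = 3 each, adjusted p = 1.25e-10), and lies on chromosome 14 like EGLN3. ARNT2 fell 3.64-fold in shYAPTAZ, from 14.66 ± 7.08 CPM to a low 3.77 ± 2.48 CPM (SD, n = 3 each, adjusted p = 0.00649). Of 26 tested HIF target genes other than EGLN1 and EGLN3, edgeR called 16 lower and 0 higher in both shHIF2A and shJUNs, and 14 lower and 3 higher in shYAPTAZ, with median log2 changes of -1.0, -0.99 and -1.2. For the counts of 0 higher, 1 target passed an unadjusted p under 0.05 in each, and 0 passed by DESeq2 or limma-voom. Across all genes tested, shHIF2A had 8.8% called lower and 9.84% higher, shJUNs 8.93% lower and 10.3% higher, and shYAPTAZ 12.3% lower and 13% higher. The fall of EGLN3 in shHIF2A, 12.7-fold, was larger than those of BHLHE40 (3.77-fold) and the glucose transporter SLC2A1 (7.33-fold). It was smaller than that of CCND1, cyclin D1 (34.5-fold). In log2 terms EGLN3 changed by -3.67, against the list median of -1.0.

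A list of 14 genes held subunits of the VHL ubiquitin ligase and its enzymes, and also WSB1, VBP1, USP20, USP33 and UBE2S. Of these 14, edgeR called 0 higher and 2 lower in shHIF2A, 4 higher and 1 lower in shJUNs, and 3 higher and 2 lower in shYAPTAZ. The shares over all genes tested are those given above, for this list and for those that follow. In shHIF2A 3 of the 14 were higher at an unadjusted p under 0.05, and 0 by DESeq2 or limma-voom. WSB1 fell 1.73-fold in shHIF2A and 1.81-fold in shYAPTAZ, and VBP1 rose 1.86-fold in shJUNs. The ligase's own RING subunit RBX1 rose 1.55-fold in shJUNs (adjusted p = 0.00773), NEDD8, which is conjugated to cullins, rose 1.68-fold in shYAPTAZ, and the ubiquitin-conjugating enzyme UBE2D2 fell 1.88-fold, 1.64-fold and 2.08-fold in shHIF2A, shJUNs and shYAPTAZ. Of 12 partners that act on the sensors or on HIF, edgeR called 1 higher and 1 lower in shHIF2A, 2 higher and 1 lower in shJUNs, and 1 higher and 0 lower in shYAPTAZ, where 1 was lower at an unadjusted p under 0.05 and 0 by DESeq2 or limma-voom. The chaperone HSP90AA1 rose 1.83-fold, 2.11-fold and 3.33-fold in that order, and CITED2, which competes with HIF for the coactivators EP300 and CREBBP, fell 1.36-fold in shHIF2A and 1.64-fold in shJUNs.

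The EGLN proteins and HIF1AN belong to the 2-oxoglutarate dioxygenases. A list of other such enzymes, which also held the thiol dioxygenase ADO from outside this class, had 32 tested genes. Of these, edgeR called 1 higher in each knockdown, while 5 fell in shHIF2A, 7 in shJUNs and 3 in shYAPTAZ. The median log2 changes were -0.19, -0.40 and -0.17. OGFOD1, a prolyl hydroxylase of a ribosomal protein, was the 1 that rose in each, by 1.75-fold, 2.25-fold and 1.92-fold. P4HA1, a collagen prolyl hydroxylase, fell 2.19-fold in shYAPTAZ, P4HA2 1.46-fold in shHIF2A and the histone demethylase KDM4B 2.16-fold in shJUNs. P4HA1 and KDM4B also stand in the list of HIF targets. Among 22 enzymes that make or consume 2-oxoglutarate, succinate and fumarate, by edgeR 4 fell and 0 rose in shHIF2A, 2 fell and 2 rose in shJUNs, and shYAPTAZ had 4 that fell and 1 that rose, with median log2 changes of 0.01, -0.12 and 0.03. In shHIF2A 3 of them were higher at an unadjusted p under 0.05, and 0 by DESeq2 or limma-voom. GOT1, an aspartate aminotransferase, fell 2.18-fold in shHIF2A and 1.72-fold in shYAPTAZ. GOT2 went the other way and rose 1.83-fold in shJUNs (adjusted p = 0.00285) and 1.76-fold in shYAPTAZ (adjusted p = 0.00345).

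Library totals were 2272459 to 4469956 counts, and in no pair of replicates were the values identical. Of the shRNA targets, EPAS1 was 15.97 ± 3.58 CPM in shHIF2A against 203 ± 59.6 in parental cells, and YAP1 14.1 ± 6.65 and WWTR1 152.6 ± 14.6 in shYAPTAZ against 65.4 ± 6.61 and 310.8 ± 66.1 (SD, n = 3 each). In shJUNs, JUND was 38.6 ± 3.998 CPM against 355 ± 40.98, JUN 85.6 ± 7.43 against 152.9 ± 17.7 and JUNB 113.2 ± 10.9 against 191.9 ± 86.4 (SD, n = 3 each). JUN was as low in shHIF2A, at 80.2 ± 0.583 CPM (SD, n = 3), and the lowest parental library of JUNB, at 97.0 CPM, lay below all shJUNs libraries. Other targets also differed in lines not aimed at them. JUND was 220.1 ± 43.2 CPM in shHIF2A and 170.0 ± 4.175 in shYAPTAZ (SD, n = 3 each). WWTR1 was 503.5 ± 25.9 CPM in shHIF2A and 441 ± 28.8 in shJUNs, and YAP1 46.1 ± 2.505 in shHIF2A (SD, n = 3 each). All 10 markers of renal carcinoma cells had counts, PAX8 at 88.9 CPM or more in each group's mean. CA9 was low at 1.29 to 3.67 CPM. Blood and endothelial markers summed to at most 2.61 and 0.964 CPM in any library. The 5 fibroblast markers summed to 14.1 to 19.5 CPM in parental libraries, 39.6 to 54.8 in shHIF2A, 15.5 to 22.7 in shJUNs and 22.7 to 29.9 in shYAPTAZ. Nearly all of it was COL1A1, COL3A1 and LUM, and DCN and PDGFRA had 7 and 5 counts over 12 libraries. The 4 neural markers, mostly MAP2, summed to 1.75 to 2.53, 8.41 to 10.6, 5.34 to 6.21 and 3.18 to 9.55 CPM in the same order. The part of these in the results was not tested.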

How the data were processed

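The authors deposited raw counts per gene. Per the submitters' processing notes they used Trim Galore and STAR with the hg38 genome. The sources do not state the counting program, its use of strand, the annotation release or how molecular identifiers were handled. Of 62705 lines, 3 belonged to 1 gene broken across lines, which was left out. A gene-name table gave 42299 genes a symbol.

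All 12 libraries entered a single robust quasi-likelihood fit in edgeR 4.0.16 (R 4.3.3) with 1 mean per group and TMM scaling. The low-count filter filterByExpr kept 12301 genes, among them 3 of the 5 members. P-values were adjusted over all of them by Benjamini-Hochberg, and called means an adjusted p under 0.05. Intervals of 95% come from the same fit. Overlaps of 3′ ends used the exons in the deposited table, and stop codons and gene types GENCODE release 29 on the same build. Alternatives included DESeq2 1.42.0, limma-voom (limma 3.58.1), other scalings and filters, thinned counts and leaving out each library.

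All members were named in every comparison, with the shRNA targets, the nearest tested genes and the 3 genes most correlated with EGLN3, and of each list up to 3 called genes per knockdown with the smallest p and a mean of at least 10 CPM. Members and lists were chosen with earlier results of these data known.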

Additional observations from a re-analysis of the deposited data

How the results depend on the processing

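The calls of EGLN3 against parental cells held in all 21 alternatives with a test, in each of the 3 knockdowns, with adjusted p of at most 0.00147 in shHIF2A, 0.0106 in shJUNs and 0.00348 in shYAPTAZ. Its log2 change ranged from -3.89 to -3.31, from -2.54 to -1.94 and from -3.49 to -2.33. Its change minus the median of chromosome 14 was -3.61 in shYAPTAZ. HIF1AN and VHL were called in none of the 21 alternatives in any of the 6 comparisons. When a library was left out, the log2 change of VHL against parental cells lay between -0.76 and -0.24 for shHIF2A, between -0.59 and -0.3 for shJUNs, and between -0.31 and 0.02 for shYAPTAZ, where it turned positive without shYAPTAZ replicate 3. Values near 0 also changed sign between shJUNs and shHIF2A when a library was left out, with HIF1AN between -0.17 and 0.01 and VHL between -0.19 and 0.33. The number of sensors called in shJUNs against shHIF2A went from 0 to 1, EGLN3, with no filter (adjusted p = 8.39e-05), in a fit of those 6 libraries (0.00226), without shYAPTAZ replicate 1 (0.00451) or replicate 3 (0.0112), and with the replicate number as a block (0.00349). It went from 0 to 1 in shYAPTAZ against shHIF2A with no filter (0.0127) or without shYAPTAZ replicate 3 (0.0144), and in shYAPTAZ against shJUNs without shYAPTAZ replicate 1 (0.0184). Leaving out a library thus gave 0 to 1 sensors in each of these pairs. The cause of these changes was not tested. The replicate block (log2 change of EGLN3 1.34 in that pair) changed no other call of a sensor. The labels do not say that a number marks a shared batch or day. The deviations of same-numbered libraries correlated between -0.01 and 0.372, with 9 of 18 pairs over 0.1. The main fit left the number out, but this count cannot exclude an effect shared by libraries of the same number. As a hint from the data, the pairs numbered 1 (0.094 to 0.289) and 3 (0.074 to 0.372) were all positive, those of 1 with 3 all negative (-0.323 to -0.076) and those numbered 2 near 0 (-0.01 to 0.039), and not every library correlated best with its own number. With counts thinned to the smallest library, EGLN3, at 33 to 169 counts in each knockdown library as deposited, had log2 changes of -3.68, -2.33 and -2.6.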

Other observations

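The tested genes next to the sensors varied in their changes. SPRTN, a DNA-protein crosslink protease next to EGLN1, rose in shHIF2A (log2 change 1.82, adjusted p = 0.00503) and in shJUNs (1.43, adjusted p = 0.0221), and its value in shYAPTAZ was 1.03 (adjusted p = 0.093). AXL, a receptor tyrosine kinase on the far side of EGLN2, fell in shHIF2A (-0.62, adjusted p = 0.00559) and in shYAPTAZ (-1.15, adjusted p = 7.52e-06), with -0.24 in shJUNs (adjusted p = 0.285). BRK1, a subunit of the actin-regulating WAVE complex just below VHL, fell in shHIF2A (-0.73, adjusted p = 0.00177). It was not called in shJUNs (adjusted p = 0.366) or shYAPTAZ (0.577). NDUFB8, a complex I subunit whose first exons face those of HIF1AN, rose in shHIF2A (0.73, adjusted p = 0.0497). It was not called in shJUNs (0.328) or shYAPTAZ (0.176). The nearest tested genes ENSG00000233461 (by EGLN1), SNRPA (EGLN2), RNU6-8 (EGLN3), PAX2 (HIF1AN) and IRAK2 (VHL) were called in no knockdown against parental cells.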
